A study of Mus musculus with 2 samples.

Results

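The squamous lineage transcription factors considered here are 10 genes, *Trp63*, *Klf5*, *Klf4*, *Pax9*, *Pitx1*, *Tfap2a*, *Tfap2c*, *Grhl1*, *Grhl3* and *Ovol1*, out of 19550 genes in the count table. They were chosen by name, as factors known from stratified squamous epithelium, with earlier results of these data known, and all 10 were measured. Counts of them set beside all genes are therefore a description. Single cells came from the esophagus, the gastroesophageal squamocolumnar junction (GE-SCJ) and the stomach of C57BL/6 wild-type mice at embryonic days 15 and 19 (E15 and E19), from pups at day 2 and from adults of 8 weeks, with no other treatment. The pool held 7808 cells, of which 730 carried a squamous and 1540 a columnar label from the authors' clustering. Mice were pooled under 1 tag for each region and stage, so every group is a single sample, cells carry no record of their mouse, and no difference was tested between replicates. By the labels 6 mice went into the E15 sample and 3 into the adult one, with 2 each at E19 and in the pup, while the methods speak of 3 mice combined. No adult stomach cells were among those given a tag.

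Stratified squamous epithelium renews itself from basal cells that lie on the basement membrane, divide, leave it and differentiate on the way to the surface. The protein p63, made from *Trp63*, keeps the basal state and is required for stratified epithelia in general. Krüppel-like, paired-box, homeobox, AP-2, Grainyhead-like and Ovo-like factors act with it, some in basal cells and some in cells that have left the basal layer. The columnar epithelium of the stomach is a single layer of secretory cells governed by endodermal factors such as Gata4, Foxa2 and Hnf4a, and the GE-SCJ is where both epithelia meet.

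Levels are given as CPM, the share of a group's unique molecular identifiers (UMIs) that belong to the gene, with all UMIs of the group set to 1000000. Values in parentheses are exact 95% Poisson intervals for a CPM or exact intervals for a log2 ratio, and all intervals cover counting error only. A difference was called where it was at least 2-fold, its interval left out 0 on the log2 scale, and the gene had at least 20 UMIs over both groups. Squamous groups held 64, 123, 85 and 232 cells in the esophagus and 47, 34, 46 and 87 cells in the GE-SCJ at E15, E19, pup and adult. Columnar groups held 53, 274, 291 and 19 cells in the GE-SCJ, and 140, 366 and 351 in the stomach at E15, E19 and pup. The median depth was 11996.5 UMIs in squamous, 25118 in columnar and 8266.5 in immune cells. The labels were checked against defining genes: 9 squamous markers, among them *Krt5*, *Krt14* and *Krt13*, summed to between 6225 and 60283 CPM in the squamous groups, and 11 columnar markers to between 1110 and 2737 CPM there. Fibroblast markers in the squamous groups ran from 262 CPM (GE-SCJ, adult) to 1869 CPM (esophagus, E15). Mesothelial markers ran from 3.22 CPM (GE-SCJ, adult) to 424 CPM (esophagus, pup), and the part of both in the levels was not tested. In the columnar groups of the GE-SCJ and stomach the squamous markers summed to between 97.8 and 146 CPM and the columnar ones to between 4702 and 54965 CPM. The 20 columnar cells of the E19 esophagus had 1565 CPM of squamous and 5796 CPM of fibroblast markers, and they set the highest columnar levels of *Pax9* and *Tfap2c* given here, in which the part of those markers was not tested. Since the labels came from a clustering of the same counts, levels by label are a description and not independent evidence.

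*Trp63* lies on chromosome 16 from 25683763 to 25892102 (GRCm38, plus strand). In the esophagus its squamous level was 268 CPM (236 to 302) at E15, 167 (148 to 188) at E19, 195 (169 to 225) in the pup and 170 (156 to 185) in the adult. In GE-SCJ squamous cells it was 233 CPM (203 to 267) at E15, 98.4 (73.7 to 129) at E19, 285 (246 to 329) in the pup and 245 (221 to 271) in the adult. The junction was thus lowest at E19 and highest in the pup, and those intervals did not meet. The E19 group had 34 cells and 53 *Trp63* UMIs, 17.0% of them in 1 cell. It also had 683 CPM of smooth muscle markers, against 73.4 to 166 in the other squamous groups, in which the part of those markers was not tested. In columnar cells *Trp63* was at 3.02, 1.26, 1.34 and 0 CPM in the GE-SCJ from E15 to adult, and at 2.33, 1.36 and 0.701 CPM in the stomach. Immune cells, which should not express it, had 6.64 CPM, and these columnar values of the GE-SCJ and stomach were no higher than that. Stromal, smooth muscle, neural and endothelial cells had 1.29 to 1.77 CPM at E15, below both columnar values. At E19 the same classes had 1.86 to 2.47 CPM, above both. In the pup GE-SCJ, 4 columnar cells had 1 UMI and 1 cell had 2 or more, with 11 UMIs in all. The 9 columnar cells of the E15 esophagus, left out of the levels above, held 8 *Trp63* UMIs. Of those cells, 1 had 1 UMI and 1 had 2 or more. Whether columnar *Trp63* was background was not tested. In the adult GE-SCJ, where 19 columnar cells held no *Trp63* UMI, the squamous level was at least 40.6-fold higher than a columnar floor of 3 counts. The few squamous cells under stomach tags, 12 in all, had 192 CPM of *Trp63* from 32 UMIs.

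*Tfap2a* (chromosome 13, 40715302 to 40738376, minus strand) and *Tfap2c* (chromosome 2, 172549593 to 172558622, plus strand) encode AP-2 factors of surface ectoderm and keratinocytes, and *Tfap2a* is also known from neural crest. *Tfap2a* stood at 18.3, 14.6, 24.7 and 51.4 CPM in esophageal squamous cells from E15 to adult, and at 14.4, 7.42, 41.8 and 65.7 CPM in those of the GE-SCJ. Adults were the highest group in both regions. *Tfap2c* stayed between 6.17 and 16.3 CPM in the esophagus and between 9.28 and 29.9 CPM in the GE-SCJ, with no steady order over the stages. No columnar group of at least 20 cells exceeded 0.755 CPM of *Tfap2a* or 1.65 CPM of *Tfap2c*. The enteric neural cells held 9.69% of all *Tfap2a* UMIs of the pool, at 12.6 CPM, and none of those of *Tfap2c*. Exons of *Tfap2a* overlap those of 3 antisense genes, of which 1 is in the count table.

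*Pax9* encodes a paired-box factor of the foregut pharynx and oral tissues, and *Pitx1* a homeobox factor of oral and hindlimb tissues. *Pax9* (chromosome 12, 56691767 to 56712822, plus strand) had 194 CPM (168 to 224) in E15 esophageal squamous cells, 188 (168 to 210) at E19, 119 (98.5 to 143) in the pup and 158 (144 to 172) in the adult. GE-SCJ squamous cells had 54.2 CPM (40.1 to 71.6), 79.8 (57.8 to 107), 22.4 (12.5 to 36.9) and 54.8 (43.7 to 67.7) in the same order, below the esophagus at each of the 4 stages. Columnar cells of the GE-SCJ and stomach had at most 3.02 CPM, and the 20 columnar cells of the E19 esophagus 8.26 CPM. *Pitx1* (chromosome 13, 55825051 to 55836192, minus strand) had 401, 348, 162 and 273 CPM in esophageal squamous cells and 530, 243, 216 and 276 CPM in those of the GE-SCJ. Its levels in columnar cells were higher than those of *Pax9*. They were 138 CPM (119 to 160) in the GE-SCJ at E15, 54.2 (48.9 to 59.8) at E19 and 22.0 (18.9 to 25.4) in the pup. In the stomach they were 40.7, 28.3 and 8.76 CPM. From E15 to pup the columnar level was therefore highest at E15 in both regions, and at each stage higher in the GE-SCJ than in the stomach. The 26 adult columnar cells of all regions had 56.8 CPM. Immune cells had 13.8, 24.5 and 13.2 CPM of *Pitx1* from E15 to pup, above the stomach columnar level in the pup. Whether columnar *Pitx1* was in part background was not tested. Exons of *Pax9* overlap those of *Slc25a21* on the other strand, and exons of *Pitx1* overlap a long noncoding RNA gene on its own strand and another on the opposite strand, and whether these overlaps touched the counts was not tested.

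*Klf5* and *Klf4* encode Krüppel-like zinc finger proteins, the first known from dividing cells of gut and squamous epithelium and the second from differentiating barrier cells and from early responses to stress. *Klf5* (chromosome 14, 99298691 to 99315036, plus strand) was at 700, 799, 808 and 456 CPM in esophageal squamous cells, and at 801, 883, 727 and 395 CPM in those of the GE-SCJ. Columnar cells had 842, 773, 350 and 724 CPM in the GE-SCJ and 684, 613 and 307 CPM in the stomach, so both lineages held it in the same range. *Klf4* (chromosome 4, 55527143 to 55532466, minus strand) was at 199, 122, 569 and 400 CPM in the esophagus and 250, 137, 303 and 446 CPM in GE-SCJ squamous cells, with the lowest level of each region at E19. In columnar cells of the GE-SCJ and stomach it ran from 168 CPM (GE-SCJ, E15) to 398 CPM (GE-SCJ, pup). Neither gene shares exon bases with a neighbour.

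*Grhl1* (chromosome 12, 24572283 to 24617391, plus strand), *Grhl3* (chromosome 4, 135541888 to 135573630, minus strand) and *Ovol1* (chromosome 19, 5549136 to 5560646, minus strand) act in cells that leave the basal layer. *Grhl1* is known to drive desmosomal cadherins, *Grhl3* the epidermal barrier, and *Ovol1* the exit from the cell cycle. Exons of *Ovol1* overlap those of 2 genes on the other strand. *Grhl1* was at 10.2, 27.5, 53.5 and 79.5 CPM in esophageal squamous cells and at 21, 33.4, 20.9 and 88.9 CPM in the GE-SCJ. *Grhl3* was at 31.6, 66.1, 38.0 and 79.5 CPM in the esophagus and 58.6, 55.7, 35.8 and 90.2 CPM in the GE-SCJ. *Ovol1* was at 26.5, 22.8, 31.9 and 56.7 CPM in the esophagus and 31.0, 37.1, 11.9 and 47.7 CPM in the GE-SCJ. Adult squamous cells were the highest group for each of the 3 genes in both regions, and over the 7 columnar groups of at least 20 cells the range was 5.44 to 13.2 CPM for *Grhl1*, 0.366 to 6.04 for *Grhl3* and 9.92 to 20.4 for *Ovol1*. These levels pool basal cells with cells that have left the basal layer, and their mix was not matched between stages. Ranked as described below, the most suprabasal adult esophageal cells had a median of 18810 UMIs and the most basal 7445. For *Grhl1* in the esophagus, the log2 ratio of pup over E19 ran from -1.70 to 1.39 over the 10 settings tried. That of *Ovol1* ran from -2.78 to 0.93 and that of *Grhl3* from -2.66 to -0.34.

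**Figure D1:**
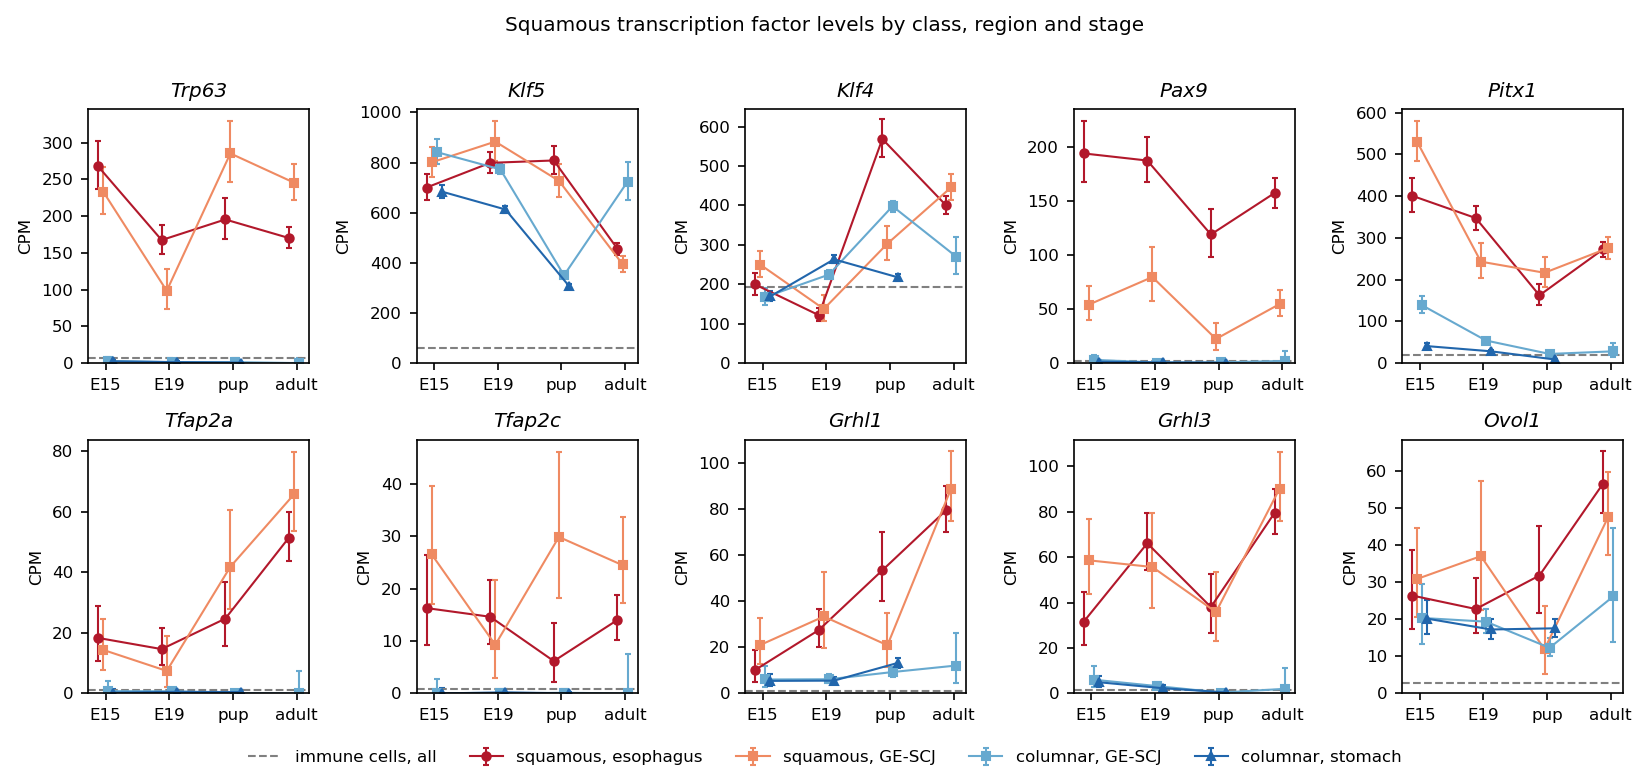
Level of each factor in CPM (vertical axis, separate scale for each gene) at E15, E19, pup and adult, in squamous cells of the esophagus (dark red circles) and GE-SCJ (orange squares) and in columnar cells of the GE-SCJ (light blue squares) and stomach (dark blue triangles), with exact 95% Poisson intervals for counting error and the level in all immune cells as a dashed line. Columnar *Trp63* lies along the bottom at 0 to 3.02 CPM, *Pax9* separates both squamous regions, and *Klf5* and *Klf4* overlap between the lineages.

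How far each factor belonged to squamous cells was read from the share of its UMIs over the whole pool, of which squamous cells held 9.92%, columnar cells 40.1% and stromal cells 30.1%. They held 93.1% of the 1437 *Pax9* UMIs, 92.0% of the 2341 *Trp63* UMIs, 87.7% of the 204 *Tfap2c* UMIs, 83.4% of the 827 *Grhl3* UMIs and 78.8% of the 485 *Tfap2a* UMIs. *Grhl1* was divided, with 54.8% in squamous and 36.0% in columnar cells. Columnar cells held 60.3% of the *Ovol1* and 72.9% of the *Klf5* UMIs, and squamous cells 33.3% and 21.7%, so that both lineages were above their part of the pool for both genes. Stromal cells held 48.6% of the *Pitx1* and 41.8% of the *Klf4* UMIs, columnar cells 12% and 35.3%, and squamous cells 28.4% and 11%. Outside the epithelium no class exceeded 2.98 CPM of *Grhl1*, 1.49 CPM of *Grhl3* or 2.92 CPM of *Ovol1* over all regions and stages, whereas *Klf4* reached 408 CPM in stromal and 344 CPM in neural cells.

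Over the 8 squamous and 7 columnar groups with at least 20 cells, every squamous group was above every columnar group for 6 of the 10 factors: *Trp63*, *Pax9*, *Pitx1*, *Tfap2a*, *Tfap2c* and *Grhl3*. Among all genes with at least 20 UMIs in these groups, 2.26% of 15049 were separated in this way. For *Pitx1* the gap was narrow, with 162 CPM in the lowest squamous group (esophagus, pup) and 138 CPM in the highest columnar one (GE-SCJ, E15). *Klf5*, *Klf4*, *Grhl1* and *Ovol1* overlapped. *Grhl1* overlapped only through the E15 esophagus at 10.2 CPM and the pup stomach at 13.2 CPM, and it too was separated when CPM was computed per cell and averaged.

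The contrast of squamous and columnar cells within the GE-SCJ was made at each stage. At E15, 6 of the 9 factors with enough UMIs were called higher in squamous cells, beside 5.54% of the 9146 genes tested, and at E19 it was 5 of 8, beside 9.78% of 11388. In the pup 8 of 10 were called higher, beside 11.4% of 11480, and in the adult 7 of 10, beside 10.4% of 8151. With the 1% of cells richest in each gene left out, the pup count was 5, although the log2 ratios of the 8 factors then lay between 1.06 and 9.47. *Pax9*, *Tfap2c* and *Grhl3* then had fewer than 20 UMIs over both groups and were not tested. Before that their squamous sums were 15, 20 and 24 UMIs, with 3, 3 and 6 of them in the richest cell. None was called lower at any stage, while 8.01%, 6.88%, 10.5% and 21.4% of all genes were. The median log2 ratio of the factors tested was 1.93, 2.33, 4.05 and 3.41 over the 4 stages, against medians of -0.09, -0.04, 0.02 and -0.37 over all genes. With 3 factors at 0 UMIs in adult columnar cells set to their lower bounds, the adult median was 2.93. *Tfap2a* at E15 and both AP-2 factors at E19 had too few UMIs to be called.

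*Trp63*, *Pax9*, *Pitx1*, *Grhl1* and *Grhl3* were called higher in GE-SCJ squamous cells at all 4 stages, but *Grhl1* in the pup, at 1.25 (0.35 to 2.06), was at 0.84 with CPM averaged per cell. *Pitx1* had log2 ratios of 1.93 (1.69 to 2.19), 2.17 (1.88 to 2.46), 3.30 (2.98 to 3.63) and 3.19 (2.45 to 4.04) from E15 to adult. *Grhl3* had 3.13, 4.1, 6.26 and 4.49. For the Krüppel-like factors the sign depended on the stage. *Klf5* had -0.07 (-0.21 to 0.07) at E15, 0.20 (0.06 to 0.33) at E19, 1.06 (0.92 to 1.20) in the pup and -0.88 (-1.07 to -0.68) in the adult, and only the pup value was called. *Klf4* had 0.58, -0.69, -0.39 and 0.71, with no call. *Ovol1* lay between 0.11 and 1.00, with no call. Of the 19 adult columnar cells, 8 had nearest neighbours mostly from before birth, so the adult columnar reference is small and partly doubtful. Of the 47, 34, 46 and 87 GE-SCJ squamous cells from E15 to adult, 1, 5, 9 and 3 had neighbours mostly across birth. In the same order, 5, 4, 2 and 1 of them did not have more squamous than columnar marker UMIs.

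Esophageal squamous cells set against stomach columnar cells gave calls for 4 of 8 factors at E15 (11.5% of 10904 genes, with none of the factors but 7.44% of genes lower), 7 of 10 at E19 (12.8% of 12143) and 8 of 9 in the pup (13.9% of 11945). Of the pup calls, *Grhl1* at 2.03 turned to -0.60 (-2.25 to 0.65) with the first of the authors' squamous labels only. *Trp63*, *Pax9*, *Pitx1* and *Grhl3* were called at the 3 stages. *Trp63* had log2 ratios of 6.70 (5.80 to 7.77), 6.84 and 7.96, and *Pax9* 6.97, 8.01 and 8.10. *Tfap2c* had too few UMIs to be called at E15, with 16 in esophageal squamous and none in stomach columnar cells. *Klf5* was called only in the pup, at 1.40 (1.28 to 1.51), where the stomach columnar level had dropped to 307 CPM while the esophageal level stood at 808. *Klf4* was called lower in the esophagus at E19, at -1.11 (-1.32 to -0.90), where 10.5% of genes were lower, and higher in the pup, at 1.39 (1.25 to 1.52).

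**Figure D2:**
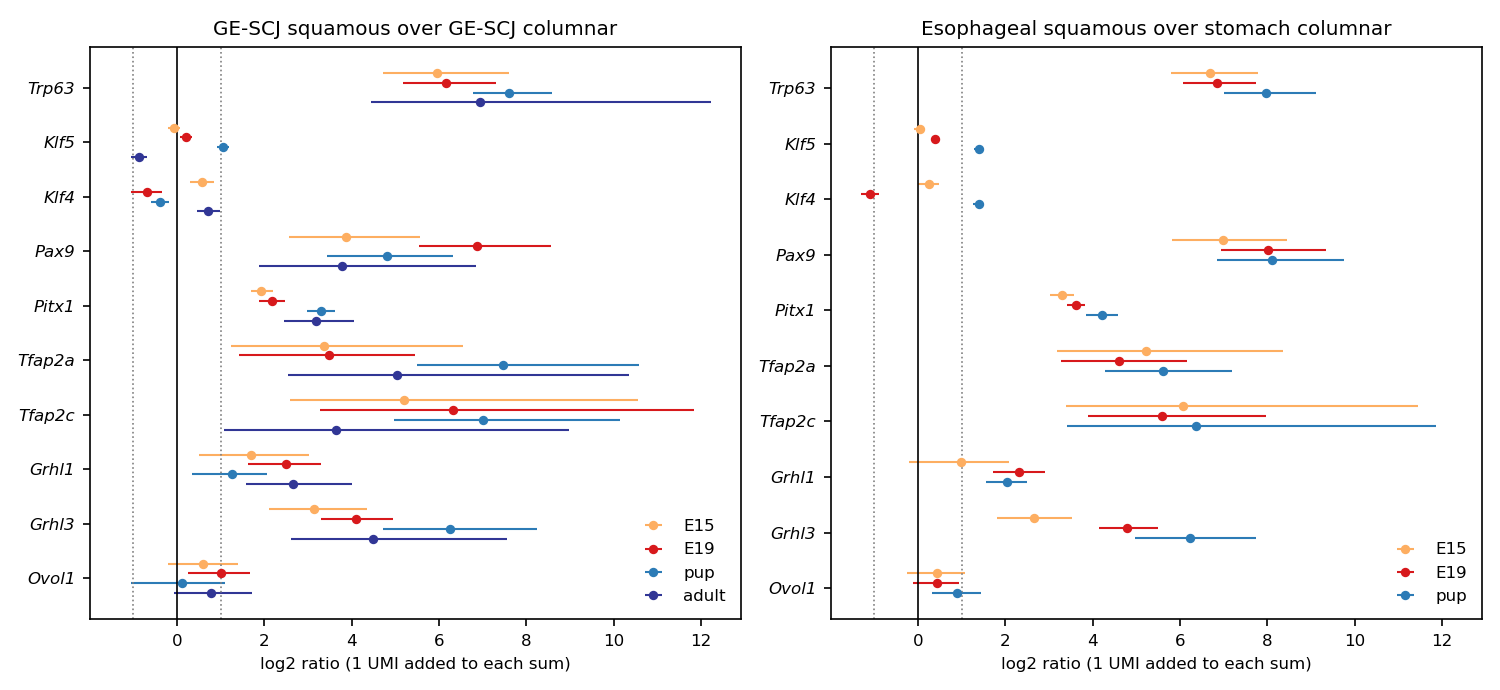
Log2 ratios of squamous over columnar cells for each factor within the GE-SCJ (left) and between esophagus and stomach (right), with 1 UMI added to each sum, by stage (colours). Lines are 95% intervals for counting error, computed with the added UMI, and dotted lines mark 2-fold. The Krüppel-like factors lie on both sides of 0, *Ovol1* lies between 0.11 and 1.00, and the others lie further to the right in most comparisons.

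The share of cells with at least 1 UMI was compared after thinning each cell to 5000 UMIs, since columnar cells were deeper. *Trp63* was found in 54.2% of 600 squamous cells (exact 95% binomial interval 50.1 to 58.2) and 0.941% of 1488 columnar cells (0.515 to 1.57), against 1.58% of 253 immune cells. Unthinned, the shares were 73.7%, 2.79% and 3.39%, and whether the columnar share was background was not tested. *Pax9* was in 40.8% of squamous and 0.269% of columnar cells, *Tfap2a* in 17.7% and 0.336%, and *Tfap2c* in 7.83% of squamous cells and 0 of 1488 columnar cells. *Grhl3* was in 120 of the 600 squamous cells and 0.941% of columnar cells. *Klf5* was in 90.0% of squamous and 81.5% of columnar cells, and *Klf4* in 57.3% and 52.2%, with 43.5% in immune cells. *Ovol1* was in 11% of squamous (8.61 to 13.8) and 8.53% of columnar cells (7.16 to 10.1), whose intervals met. Thinning left out 130 squamous, 52 columnar and 101 immune cells.

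By group, thinned *Trp63* shares ran from 36.7% in GE-SCJ squamous cells at E19 to 66.7% in the pup. *Pax9* was in 55.2%, 58.3%, 45.3% and 45.6% of esophageal squamous cells from E15 to adult and in 26.7%, 23.3%, 9.52% and 23.9% of those of the GE-SCJ. *Pitx1* was in 97.8% of E15 GE-SCJ squamous cells and, at the same stage, in 46.2% of the columnar cells beside them. At this depth every squamous group was above every columnar group for 5 factors, the 6 above without *Pitx1*, beside 1.3% of 15049 genes. The count was 2 where a cell needed at least 2 UMIs, and 3 at a depth of 2000 UMIs. The median squamous cell held 4 of the 10 factors in 6 of the 8 groups and 3 to 3.5 in the E19 and pup GE-SCJ. The share with 5 or more was highest in the adult GE-SCJ, at 49.3% (36.8 to 61.8), and lowest in the E19 GE-SCJ, at 16.7% (5.64 to 34.7).

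**Figure D3:**
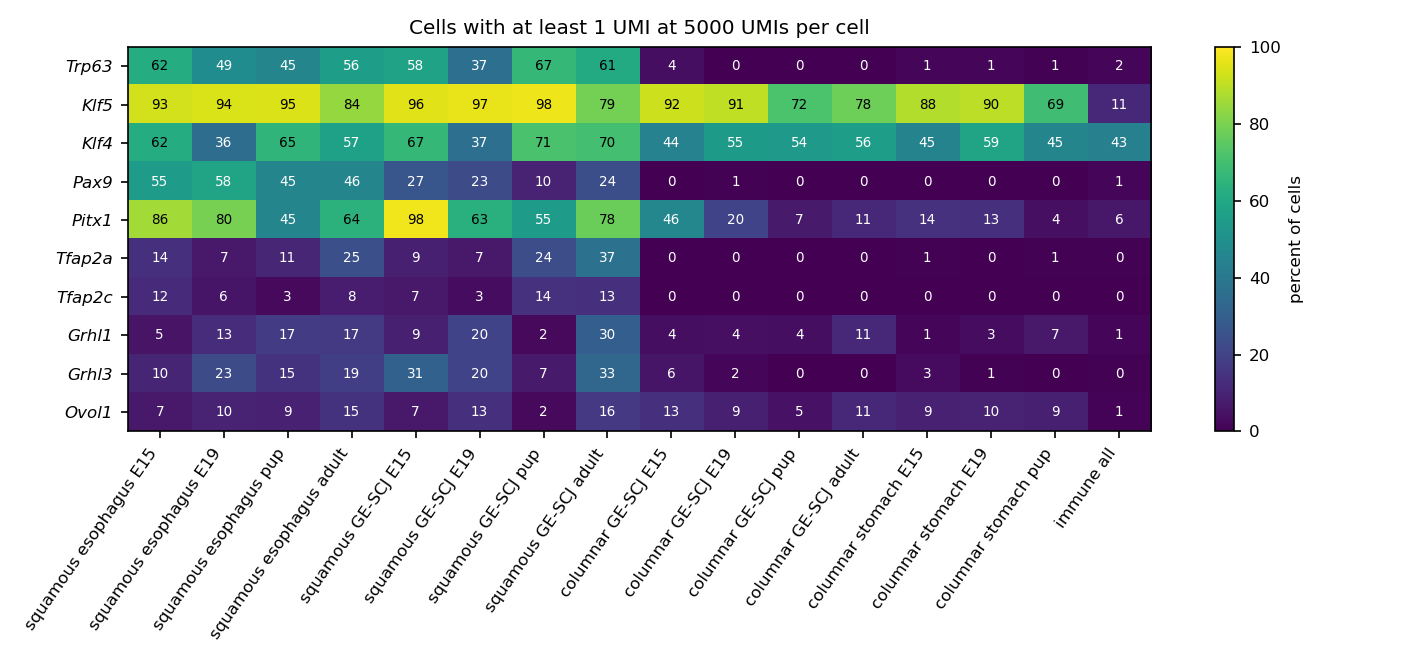
Percent of cells with at least 1 UMI of each factor (rows) in each squamous and columnar group and in all immune cells (columns), with every cell thinned to 5000 UMIs; colour and printed number give the same percent. *Klf5* is near the top of the scale in both lineages and low in immune cells, while *Trp63*, *Pax9* and the AP-2 factors are near 0 outside the squamous columns.

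The region comparison set GE-SCJ against esophageal squamous cells at each stage. The paper describes the mouse forestomach as squamous too, and the labels do not tell forestomach from esophageal cells within the GE-SCJ. *Pax9* was called lower in the GE-SCJ at all 4 stages, with log2 ratios of -1.82 (-2.30 to -1.37), -1.21 (-1.70 to -0.75), -2.33 (-3.19 to -1.57) and -1.51 (-1.86 to -1.18). It was the only factor called at E15 (5.32% of genes were called lower), at E19 (4.5%) and in the adult (4.6%), and no factor was called higher at those stages, beside 2.43%, 5.29% and 1.9% of genes. Over the 10 settings tried, its ratio ran from -1.99 to -1.62 at E15, -1.50 to -1.08 at E19, -3.05 to -2.02 in the pup and -1.75 to -1.37 in the adult. The *Pax9* share of a 5000-UMI cell was lower in the GE-SCJ at each stage as well, as given above. *Trp63* differed by between -0.74 and 0.55 and *Pitx1* by between -0.51 and 0.42. The sign of the pup *Trp63* ratio depended on the setting, from -0.19 to 0.85 over the 10 tried.

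In the pup, *Pax9*, *Grhl1* (-1.28) and *Ovol1* (-1.29) were called lower and *Tfap2c* (2.12) higher in the GE-SCJ, beside 9.78% of 7134 genes lower and 11.9% higher. This comparison rests on which cells carry the second of the authors' squamous labels, which 29 of the 85 pup esophageal cells have. With the first label only, *Grhl1* was at 1.18 (-0.40 to 3.02) and *Ovol1* at 1.80 (-0.52 to 5.07), the opposite sign without a call. With the mitochondrial, ribosomal protein and hemoglobin genes left out of the library size, 1 factor was called lower and 2 higher.

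**Figure D4:**
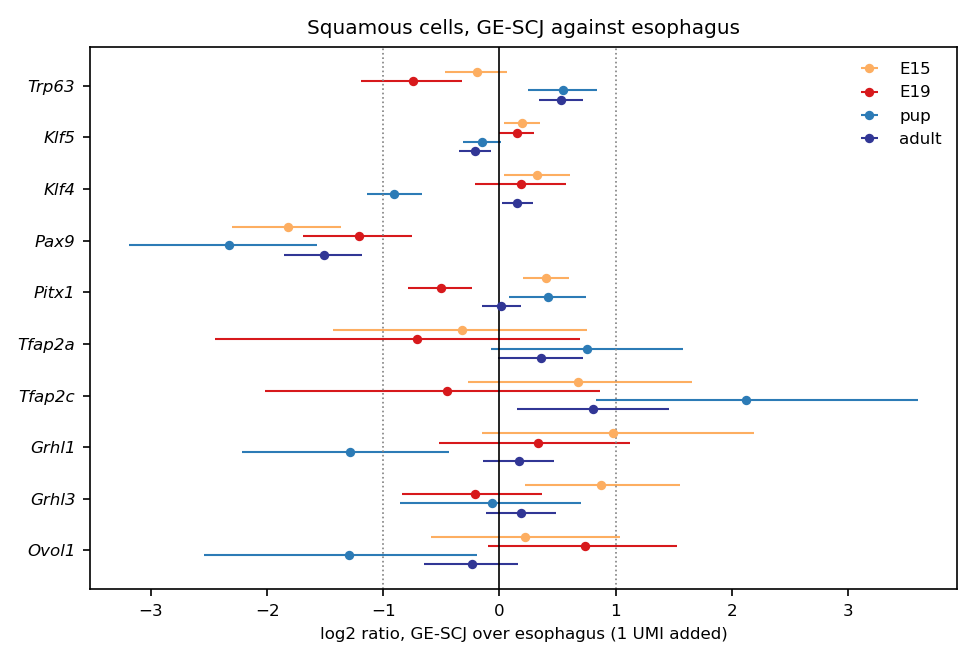
Log2 ratio of GE-SCJ over esophageal squamous cells for each factor (rows) at 4 stages (colours), with 1 UMI added to each sum and 95% intervals for counting error computed with the added UMI. *Pax9* lies left of the dotted line at -1 at every stage, and the other factors lie on both sides of 0.

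Squamous cells were then followed over the stages, without matching the mix of basal and suprabasal cells between them. Successive comparisons share a group, and the median ratio of all genes moved with the stage, by -0.50 (esophagus) and -0.46 (GE-SCJ) for adult over E15, by -0.43 and -0.17 for pup over E19, and by 0.22 and -0.09 for adult over pup. From E15 to adult in the esophagus, 4 factors were called higher, beside 8.99% of 10392 genes: *Grhl1* at 2.83 (1.97 to 3.85), *Tfap2a* at 1.42 (0.73 to 2.19), *Grhl3* at 1.29 (0.76 to 1.87) and *Ovol1* at 1.05 (0.46 to 1.69). With CPM averaged per cell *Grhl3* (0.83) and *Ovol1* (0.70) were no longer called, which left 2. None was called lower, against 25.5% of genes. In the GE-SCJ, *Tfap2a* at 2.10 (1.29 to 3.02) and *Grhl1* at 2.02 (1.34 to 2.77) were called higher, beside 9.08% of 8837 genes. *Klf5* was lower at -1.02 (-1.18 to -0.86), beside 24% of genes, but relative to the median of all genes it was at -0.56. Centring the ratios on that median turned these counts in the GE-SCJ from 2 higher and 1 lower to 5 higher and none lower. *Trp63* itself was at -0.66 in the esophagus and 0.07 in the GE-SCJ. The median ratio of the 10 factors was 0.36 in the esophagus and 0.33 in the GE-SCJ.

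Between E15 and E19, *Grhl1* (1.33) and *Grhl3* (1.03) were called higher in the esophagus, beside 3.9% of 9629 genes, and none was lower, beside 7.85%. In the GE-SCJ no factor was called higher, beside 6.13% of genes, and *Trp63* (-1.23) and *Pitx1* (-1.12) were called lower, beside 8.07% of 7572 genes. From E19 to pup, *Klf4* was called higher in the esophagus, at 2.22 (1.99 to 2.46), beside 7.25% of 9181 genes. *Pitx1* was lower at -1.09 (-1.35 to -0.84), beside 18.4% of genes, but at -0.66 relative to the median, where 3 factors were higher and none lower. The GE-SCJ had *Klf4* (1.13), *Trp63* (1.52), *Tfap2a* (2.22) and *Tfap2c* (1.49) higher, beside 4.58% of 6439 genes, and *Pax9* (-1.77) and *Ovol1* (-1.54) lower, beside 9.26%. From pup to adult, *Grhl3* (1.03) and *Tfap2a* (1.01) were called higher in the esophagus, beside 17.8% of 10085 genes, but relative to the median of all genes neither was, and 1 factor (*Klf5*, -1.04) was lower. In the GE-SCJ *Grhl1* (2.00), *Ovol1* (1.85), *Grhl3* (1.28) and *Pax9* (1.21) were called higher, beside 8.94% of 8088 genes.

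In stomach columnar cells, *Grhl3* was lower at E19 than at E15, at -1.10, beside 5.6% of 12310 genes, and no factor was higher, beside 3.78%. From E19 to pup, *Pitx1* (-1.68) and *Grhl3* (-2.20) were lower, beside 12.4% of 12828 genes, and *Grhl1* (1.23) was higher, beside 6.49%. *Klf5* stood at -1.0 (-1.06 to -0.94), just short of a call.

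The high *Klf4* level of the pup was not limited to squamous cells. Pup over E19, *Klf4* was at a log2 ratio of 1.48 (1.40 to 1.55) in stromal, 2.12 (1.90 to 2.34) in smooth muscle, 2.00 (1.77 to 2.24) in immune, 1.5 (1.03 to 1.95) in endothelial and 0.63 (0.37 to 0.88) in neural cells. Columnar cells differed by region, with 0.83 (0.74 to 0.91) in the GE-SCJ and -0.27 (-0.35 to -0.19) in the stomach. The summed level of 5 immediate early and heat shock genes (*Fos*, *Jun*, *Egr1*, *Atf3* and *Hspa1a*) moved with it in some of these groups. Esophageal squamous cells had 2168 CPM of them at E19 against 4699 CPM in the pup, stromal cells 3720 against 10271 CPM and immune cells 7019 against 10061 CPM. The sum was also higher in pup smooth muscle, neural and endothelial cells. In GE-SCJ cells it was lower in the pup than at E19, at 3264 and 4213 CPM in squamous and 2779 and 5685 CPM in columnar cells, although *Klf4* was higher in both. There *Fos*, *Egr1* and *Atf3* were lower in the pup in both. *Hspa1a* was higher, at 240 against 57.5 CPM in squamous and 175 against 40.3 CPM in columnar cells. Cells of the authors' second stromal label had *Klf4* at 1.13 (0.81 to 1.46), with the sum at 3471 against 4223 CPM. The part of these genes in the *Klf4* level was not tested.

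Within the squamous epithelium, cells were ranked from basal to suprabasal by the UMIs of *Krt13*, *Krt4*, *Sbsn*, *Krtdap* and *Krt6a* as a share of these and of *Krt5*, *Krt14*, *Krt15*, *Col17a1*, *Itga6* and *Itgb4*, and cut into 3 equal parts. None of the 10 factors is in the score, the parts are ranges and not cell types, and 45 and 52 of the 232 adult esophageal cells lay within 0.05 of the first and the second cut. In the adult esophagus *Trp63* was at 367, 273 and 51.7 CPM from the most basal to the most suprabasal part. *Grhl1* was at 4.4, 17.4 and 134 CPM, *Grhl3* at 2.94, 18.7 and 134, *Ovol1* at 7.34, 21.4 and 90.4, and *Klf4* at 119, 224 and 582. The proliferation gene *Mki67* was at 332, 289 and 2.25 CPM.

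In adult esophageal cells, *Grhl3* (4.94, 3.37 to 7.22), *Grhl1* (4.52, 3.15 to 6.41), *Ovol1* (3.37, 2.22 to 4.84) and *Klf4* (2.28, 1.95 to 2.62) were called higher in the suprabasal part, as log2 ratios, beside 13.6% of 8338 genes. *Trp63* was lower at -2.82 (-3.18 to -2.47), beside 27% of genes. *Klf5* (-0.62), *Pax9* (0.24), *Pitx1* (0.55), *Tfap2a* (-0.30) and *Tfap2c* (-0.54) were not called. The adult GE-SCJ had the same 4 factors higher, beside 14.1% of 5652 genes, with *Klf4* at 2.25, *Grhl1* at 3.75, *Grhl3* at 2.24 and *Ovol1* at 2.34. *Trp63* (-2.68) and *Tfap2c* (-1.53, from 54.2 to 18.7 CPM) were lower there, beside 18.3%. The median log2 ratio over all genes was -0.39 in the adult esophagus and -0.19 in the adult GE-SCJ, against 0.39 and 0.75 for the 10 factors.

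At E19 the esophagus showed *Grhl1* (3.83), *Grhl3* (2.47), *Ovol1* (1.85) and *Tfap2c* (1.83) higher toward the suprabasal end, beside 10.6% of 6827 genes, and *Trp63* (-3.24) and *Pax9* (-1.13) lower, beside 23.4%. *Pax9* was not called with 2 equal parts (-0.88) or with *Krt13* and *Krt5* alone. *Klf4* was at 0.58 (0.09 to 1.10), with 94.0 CPM in the basal and 142 CPM in the suprabasal part. In the pup the direction of *Klf4* was opposite to that of the adult, with 830, 1053 and 130 CPM over the parts and a log2 ratio of -2.65 (-3.10 to -2.23). *Pax9* (-2.74) and *Trp63* (-4.76) were lower as well, beside 37.8% of 3560 genes, and *Grhl1*, *Grhl3* (3.25) and *Ovol1* (2.99) were higher, beside 19.6%. *Grhl1* had 0 UMIs in the basal part and 104 CPM in the suprabasal part, at least 8.30-fold above the floor of 3 counts. Of the 28 cells in the most suprabasal part of the pup, 27 carried the second squamous label.

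**Figure D5:**
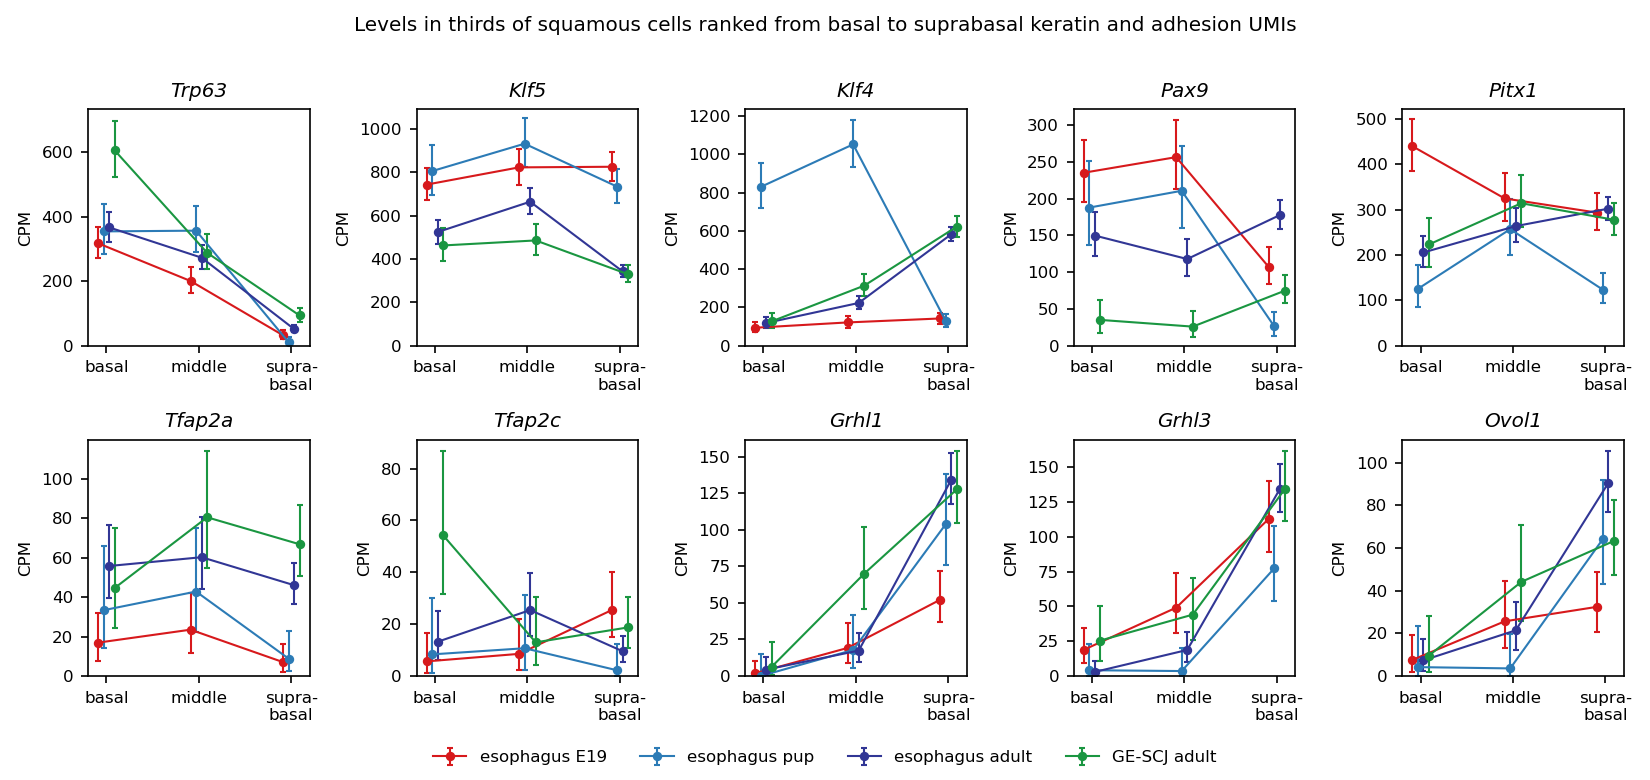
Level of each factor in CPM (separate scale for each gene) in 3 equal parts of squamous cells ranked from basal to suprabasal, for the esophagus at E19 (red), pup (light blue) and adult (dark blue) and for the adult GE-SCJ (green), with exact 95% Poisson intervals for counting error. *Trp63* is between 318 and 606 CPM in the most basal and between 11 and 93.7 CPM in the most suprabasal part of the 4 series, *Grhl1*, *Grhl3* and *Ovol1* are highest on the right, and *Klf4* is high on the right in adults but on the left in the pup.

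The second squamous label was compared directly with the first in the pup esophagus, 29 against 56 cells. *Trp63* had 190 UMIs (333 CPM) under the first label and none under the second, at least 44.6-fold lower against the floor of 3 counts. *Klf4* was at 890 CPM under the first and 112 CPM under the second label, and *Pax9* at 187 and 22.4 CPM. *Grhl1* was at 7.01 and 119 CPM, *Grhl3* at 8.76 and 79.7 CPM, and *Ovol1* at 1.75 and 74.7 CPM. These 3 were called higher, beside 15.8% of 5005 genes, and *Trp63*, *Klf4* and *Pax9* lower, beside 48.4%. The median ratio of all genes was -1.08. *Klf5* (837 and 767 CPM) and *Pitx1* (196 and 115 CPM) were not called. With mitochondrial, ribosomal protein and hemoglobin genes left out of the library size, *Pitx1* (-1.42) and *Tfap2a* (-1.90) were called lower as well, 5 in all. *Tfap2c* had too few UMIs. The label came from the clustering of these counts, so these values describe it and do not test it.

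*Grhl1*, *Grhl3* and *Klf4* were all called higher at the suprabasal end in adults, and the 250 bases before their start sites are shown because of that shared direction. The RefSeq table used (GRCm38.p6) matched 5 of the 10 factors, these 3, *Pax9* and *Tfap2a*. Capitals mark matches, on either strand, to an AP-2 motif (GCCNNNGGC) or a Krüppel-like motif (CCNCACCC), with each sequence written 5′ to 3′ on the strand of its gene, and no match overlaps another.
Klf4, chr4:55532476-55532725, minus strand: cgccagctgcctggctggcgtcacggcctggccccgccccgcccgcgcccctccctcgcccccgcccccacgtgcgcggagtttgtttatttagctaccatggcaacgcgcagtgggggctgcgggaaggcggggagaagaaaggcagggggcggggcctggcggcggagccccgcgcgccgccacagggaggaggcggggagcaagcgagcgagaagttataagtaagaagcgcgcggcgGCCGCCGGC
Grhl1, chr12:24572037-24572286, plus strand: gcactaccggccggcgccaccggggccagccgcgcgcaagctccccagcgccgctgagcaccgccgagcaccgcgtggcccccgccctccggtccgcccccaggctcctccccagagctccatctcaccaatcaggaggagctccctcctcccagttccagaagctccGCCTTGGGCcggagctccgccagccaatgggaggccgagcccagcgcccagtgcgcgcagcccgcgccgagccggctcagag
Grhl3, chr4:135573633-135573882, minus strand: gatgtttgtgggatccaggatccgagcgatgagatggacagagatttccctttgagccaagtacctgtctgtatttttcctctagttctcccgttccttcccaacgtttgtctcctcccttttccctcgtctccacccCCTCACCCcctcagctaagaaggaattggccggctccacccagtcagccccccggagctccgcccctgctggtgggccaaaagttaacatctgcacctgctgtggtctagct
The AP-2 motif was found at 1 place each in the *Klf4* and *Grhl1* windows and in 13.7% of the 32851 promoters in the table, and the Krüppel-like motif at 1 place in the *Grhl3* window and in 14.9% of promoters. A Grainyhead-like motif (AACCGGTT, present in 0.116% of promoters) was in none of the 3 windows. The windows held 74%, 75.6% and 56% G and C bases, against a median of 52.4%. A second *Grhl1* start in the table, the *Pax9* window and both *Tfap2a* windows held no match to the 3 motifs.

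Genes whose levels ran most like each factor were sought over the 15 squamous and columnar groups with at least 20 cells, by Pearson's r of log2(CPM + 10) among 10942 genes. These groups come from a single pool and differ mainly by lineage, so the values are descriptive. *Trp63* ran most like *Pdzd2* (r = 0.98), *Tiam1* and *Frmd6*. *Grhl1* ran like the serine protease gene *Tmprss13* (0.98), *Klk11* and the gap junction gene *Gjb2*, and *Grhl3* like *Phldb3* (0.98), the transglutaminase gene *Tgm1* (0.98) and *Elf5*. *Tfap2a* was closest to *Sh3rf2* (0.96), the desmosomal cadherin gene *Dsc3* and *Dgcr6*, and *Tfap2c* to *Anxa8* (0.96), *Fat2* and *Dusp7*. For *Pax9* it was *Fzd6* (0.95), *Osbpl5* and *Anxa5*, and for *Pitx1* it was *Ptn* (0.96), *Kctd1* and *Smarcd2*. *Klf5* was closest to the imprinted fetal gene *H19* (0.92), *Usp43* and *Ctdspl*, and *Ovol1* to *Zfp772* (0.90), *Pgs1* and *Clip1*. *Klf4* had the lowest likeness of the 10, with *Inpp5k* (0.82), the heat shock gene *Hspa1a* (0.78) and *Dnaja4*. Between the factors, r was 0.94 for *Trp63* with *Tfap2c* and with *Grhl3*, and -0.42 for *Klf5* with *Klf4*.

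Other regulators, from lists of genes with known roles, were read beside the 10 factors in the GE-SCJ, where 5.54% of all genes were higher and 8.01% lower in squamous cells at E15, and 10.4% and 21.4% in the adult. Of 22 other squamous regulators, 8 of 16 tested were higher in squamous than columnar cells at E15 and 1 lower, and in the adult 10 of 18 were higher and 5 lower. Among those higher, *Hopx* (5.68 and 7.03, log2), *Barx2* (5.36 and 5.57) and *Elf5* (3.21 and 4.52) were called at E15 and in the adult. Those called lower are not named here. *Sox2*, known from both esophagus and anterior stomach, was called only in the pup, at 2.74, and lay between 0.56 and 0.67 at the other stages. Of 14 columnar regulators none was higher in squamous cells, and 6 of 10 at E15 and 8 of 8 in the adult were lower, among them *Gata6* (-3.41 and -4.92) and *Hnf4a* (-2.91 and -4.71). Of 14 basal squamous genes, 10 of 12 tested were higher in squamous cells at E15 and 8 of 12 in the adult, where 1 was lower, and of 19 differentiation genes 10 of 14 and 18 of 18 were higher. Of 17 relatives from the same families as the 10 factors, 16 were in the table. At E15 1 of 10 tested was higher (*Klf9*, 1.06) and 1 lower (*Klf2*, -2.13), beside 5.54% and 8.01% of all genes. In the adult none of 9 was higher and 3 were lower, beside 10.4% and 21.4%. With so few genes, no difference from these shares is read. *Grhl2*, the other gene of the Grainyhead-like family, was called higher only in the pup (1.16), and *Ovol2* was lower at E19 (-2.02); these and *Sox2* are given for their kinship or known role.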

How the data were processed

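The authors pooled cells tagged with multiplexing oligos in a single 10x library and aligned it with Cell Ranger 6.1.1 to mm10, per the labels and methods. The deposited table holds raw UMI counts per gene and cell, and the deposited cell list a percent of mitochondrial counts, the tag of each cell and its class from the authors' clustering of the same counts, so classes and levels are not independent. Doublets were limited by the authors' filters and tags, and none were removed further.

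UMI counts were summed by class, region and stage and scaled to CPM. Intervals were exact Poisson (CPM), conditional on the sum with the added UMI (log2 ratio) or Clopper-Pearson (shares) at 95%. For CPM averaged per cell, the interval of the sums was shifted onto the new ratio. Ratios had 1 UMI added to each sum, and calls needed 20 UMIs and a 2-fold difference. Cells were thinned to 5000 UMIs with seed 1. With 1 pooled sample in each group, no test was run. Positions are from GENCODE M21 on GRCm38. The 3′ counts do not separate isoforms. The 10 factors were measured in every comparison, and those not named in one are covered by its counts. Up to 4 genes of each other list were named, by the size of the ratio or for kinship or a known role. Squamous regulators called lower were not named. The factors and lists were chosen with earlier results of these data known. The ratio step was tested on simulated sums drawn with Poisson counting error, which the intervals assume. The simulation had no spread between cells or mice and does not cover it. The tools were matplotlib 3.10.9, scikit-learn 1.9.0, pandas 2.3.3, scipy 1.17.1 and numpy 2.4.6 under Python 3.11.15. Alternatives changed the summing, the cell filters, the library size, the labels, the UMI minimum, the added UMI and the centring.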

Additional observations from a re-analysis of the deposited data

Results flagged for a closer look

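*Klf4* in esophageal squamous cells over stomach columnar cells had opposite signs on either side of birth. The log2 ratio was -1.11 (-1.32 to -0.90) at E19, from 122 against 263 CPM, and 1.39 (1.25 to 1.52) in the pup, from 569 against 218 CPM. The pair drew attention because the same contrast ran in opposite directions at the 2 stages, and the difference was not tested, since each stage is 1 pooled sample. Over the 10 settings tried the ratio lay between -1.14 and -0.98 at E19 and between 1.28 and 2.03 in the pup. This contrast differs in region as well as in lineage. Within the GE-SCJ, squamous over columnar *Klf4* was negative at both stages over the 10 settings. There it lay between -0.75 and -0.48 at E19 and between -0.81 and -0.07 in the pup.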

How the results depend on the processing

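With 1 pooled sample per group, differences between mice, tags or days cannot be told apart from those between regions and stages, intervals cover counting error only, and groups of 19 to 47 cells limit the GE-SCJ most. No paired analysis was possible because each region and stage has 1 pooled sample. Of the counts of factors recomputed, 394 stayed within 1.5 times the value given and 46 did not. Of the single values, 3229 lay within their counting interval, 508 moved beyond it and 3 that had been called reversed sign. Sign changes of values not called were not counted as reversed. *Grhl1* and *Ovol1* in the esophagus from E19 to pup, for example, changed sign between settings without having been called. For those listed here the cause was not tested, apart from the smaller number of genes tested, with a minimum of 100 UMIs or without the cells richest in a gene. With that minimum, GE-SCJ squamous over columnar gave 2 higher instead of 6 at E15, 1 instead of 5 at E19 and 3 instead of 8 in the pup. Under it the esophagus had 1 higher instead of 2 from E15 to E19, the GE-SCJ 2 higher and 0 lower from E19 to pup, stomach columnar cells 0 lower (E19 over E15) and 1 lower (pup over E19), the pup region comparison 0 higher and 1 lower, and the second label 0 higher. With the 1% of cells richest in a gene left out, the pup GE-SCJ gave 5 higher instead of 8. With CPM computed per cell and averaged, the esophagus gave 1 higher (E19 over E15), 2 higher and 2 lower (pup over E19), 1 lower (adult over pup) and 2 higher instead of 4 (adult over E15), the GE-SCJ 2 higher (pup over E19) and stomach columnar cells 0 higher. With cells under 1000 UMIs or over 10% mitochondrial left out, 2 factors were higher in the esophagus (pup over E19) and 0 lower in the GE-SCJ (adult over E15). With the first squamous label only, the esophagus gave 2 higher and 3 lower (pup over E19) and 1 lower (adult over pup), the GE-SCJ 1 lower (E19 over E15) and the pup region comparison 2 higher. That setting reversed *Grhl1* of esophageal squamous over stomach columnar cells in the pup, from 2.03 to -0.60, and in the pup region comparison *Grhl1* from -1.28 to 1.18 and *Ovol1* from -1.29 to 1.80. Without cells whose neighbours lay mostly on the other side of birth, the esophagus gave 2 higher (pup over E19) and 1 higher (adult over pup), and the GE-SCJ 1 lower (pup over E19). Centred on the median of all genes, the esophagus gave 3 higher and 0 lower (pup over E19) and 0 higher and 1 lower (adult over pup), the GE-SCJ 1 lower (E19 over E15) and 5 higher and 0 lower (adult over E15), and stomach columnar cells 0 lower (E19 over E15). With mitochondrial, ribosomal protein and hemoglobin genes left out of the library size, the GE-SCJ gave 1 lower (adult over pup), the pup region comparison 2 higher and 1 lower, and the second label 5 lower. With labels kept only where the markers supported them, the E15 region comparison gave 1 higher. Factors separated by shares of cells numbered 2 with at least 2 UMIs and 3 at 2000 UMIs, instead of 5. Along the basal to suprabasal range of the E19 esophagus, 1 factor was lower instead of 2, both with 2 equal parts and with *Krt13* and *Krt5* alone.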

Other observations

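Outside the epithelium, *Pitx1* levels differed by region. In stromal cells it was at 40.2, 58.7, 14.3 and 12.4 CPM in the esophagus from E15 to adult, at 237, 263 and 114 CPM in the GE-SCJ and at 143, 293 and 71.7 CPM in the stomach from E15 to pup. In smooth muscle cells it was at 131, 99.7 and 263 CPM in the GE-SCJ and 57.5, 109 and 260 CPM in the stomach, against 7.94, 6.49, 34.9 and 58.3 CPM in the esophagus, where the smooth muscle groups held only 3 to 10 UMIs each. Levels of the esophagus were thus below those of the GE-SCJ and stomach at each stage from E15 to pup in both classes.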
